A study of Mus musculus with 4 samples.

Results

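Glycolysis and the pentose phosphate pathway were followed step by step, isoform by isoform and transport included, through 34 genes in CD4+ T cells, out of 23339 gene names in the deposited tables. The members were taken by gene name: glucose and lactate carriers, the enzymes between hexokinase and lactate dehydrogenase, the kinase-phosphatases that set fructose 2,6-bisphosphate, the 7 enzymes of the pentose phosphate branch and the transcription factor gene *Hif1a*. Each of the 34 had its own row in the tables. The deposited loci of *Hk1*, *Pfkm*, *Pfkp*, *Pfkfb2*, *Tpi1*, *G6pdx* and *Rpe* also carry another gene name, between which reads may have been divided wrongly.

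The study sequenced RNA of 4 groups with 1 library each: cKO day 3, WT day 3, cKO day 0 and WT day 0. The cKO mice were *Cic* f/f; *Cd4-Cre*, in which Cre driven by the *Cd4* promoter recombines the floxed gene of the transcriptional repressor Capicua (CIC) in T cells, and the WT mice were *Cic* f/f without Cre. All mice were C57BL/6J, 10 to 12 weeks old per the labels, and all cells came from spleen and were sorted as naïve CD4+ cells. Day 0 is the sorted cell and day 3 the same kind of cell after 3 days on plates coated with 2 µg/ml each of anti-CD3 and anti-CD28, antibodies that stand in for antigen and co-stimulation. The labels describe the gate as CD25-CD44hiCD62Llo, whereas the methods describe CD44lo CD62Lhi. The number of animals behind a library is not given in the sources used here. With 1 library per group there were no replicates, so differences are described without a test or p-value.

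Glycolysis splits glucose into pyruvate. The preparatory steps spend ATP to make triose phosphates, and the payoff steps from glyceraldehyde 3-phosphate to pyruvate return ATP and NADH. Lactate dehydrogenase reoxidises NADH, and monocarboxylate transporters carry the lactate out. The pentose phosphate branch leaves at glucose 6-phosphate and gives NADPH and ribose 5-phosphate. Resting T cells use little glucose, and T cells stimulated through their receptor are known to take up glucose and release lactate even with oxygen present.

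Values are FPKM, fragments per length of transcript and per total of mapped fragments in the library, so that paralogs can be set side by side. The make-up of the libraries differed between days. Loci without a gene name held 89.2% of all FPKM in cKO and 86.1% in WT on day 3, against 23.0% and 4.39% on day 0. The members held 0.934% of the FPKM of named genes in cKO and 1.07% in WT on day 3, against 0.152% and 0.172% on day 0. The part of the unnamed loci in the ratios between days was not tested. Differences are log2((a + 0.1)/(b + 0.1)) of FPKM, for gene names with at least 1 FPKM in either library, and a gene met the size rule when its ratio lay beyond 1.5 on the log2 scale in either direction. The smallest steps between low FPKM values showed what a single fragment was worth, which put the libraries at 9330000 fragments (cKO day 3), 8800000 (WT day 3), 9320000 (cKO day 0) and 7630000 (WT day 0) on that scale. From this, approximate fragment numbers and 95% counting intervals of each log2 ratio were computed for 33 of the 34 members (*Pkm* had no transcript length). The intervals are of the FPKM ratio without the added 0.1, so at low FPKM they are not centred on the printed ratio. They cover counting error only, not the spread between mice or cultures. Ratios on this scale understate differences of genes with low FPKM.

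Markers of T cells were present in all libraries: the summed FPKM of 10 T-cell genes was 1535 on day 3 against 1570 on day 0 in cKO, and 1350 on day 3 against 1323 on day 0 in WT. On day 0 the libraries also held transcripts of other spleen cells. A list of 10 macrophage and monocyte genes summed to 2.89 FPKM in cKO and 3.82 in WT on day 3, against 73.0 in cKO and 229 in WT on day 0, when 10 of 10 were lower in cKO and 8 by the size rule. The 10 erythroid genes summed to 14.5 and 30.2 FPKM on day 3 in cKO and WT, against 159 and 418 FPKM on day 0, and the 7 neutrophil genes to 0.32 and 0.204 on day 3, against 31.7 and 65.0 on day 0. The 8 B-cell genes summed to 60.2 and 48.2 FPKM on day 3, against 44.0 and 20.9 on day 0. The part of these cells in the results below was not tested. *Cic* itself had 12.2 FPKM on day 3 against 24.9 on day 0 in cKO, and 17.8 on day 3 against 25.4 on day 0 in WT. This is a value for the whole locus and does not check the deletion.

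After 3 days of stimulation most of the pathway was higher in both genotypes. The summed FPKM of the 34 genes was 7632 on day 3 against 905 on day 0 in cKO, and 7996 on day 3 against 939 on day 0 in WT. In cKO, 20 of 33 measured members were higher on day 3 by the size rule and 0 were lower, where 17.3% of 11232 gene names tested were higher and 6.96% lower. In WT, 21 of 33 were higher and 0 lower, against 19% higher and 8.84% lower among 11440 gene names. The members' median log2 ratio was 2.37 in cKO and 2.13 in WT, and that of all genes tested was 0.36 in cKO and 0.40 in WT. The same 20 members met the rule in both genotypes, and *Hk1*, at 1.49 in cKO and 1.60 in WT, met it in WT and just missed it in cKO. A further 9 members had ratios above 0 that stayed under the rule in both, 3 had ratios below 0, and *Eno2* was under 1 FPKM in every library and was not compared. With the ratios taken relative to the median gene, 19 members were higher in cKO, against 12% of all genes higher and 10.3% lower, and 17 in WT, against 12.5% higher and 12.6% lower. In bulk RNA, more cells of a kind and more RNA per cell cannot be told apart.

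**Figure D1:**
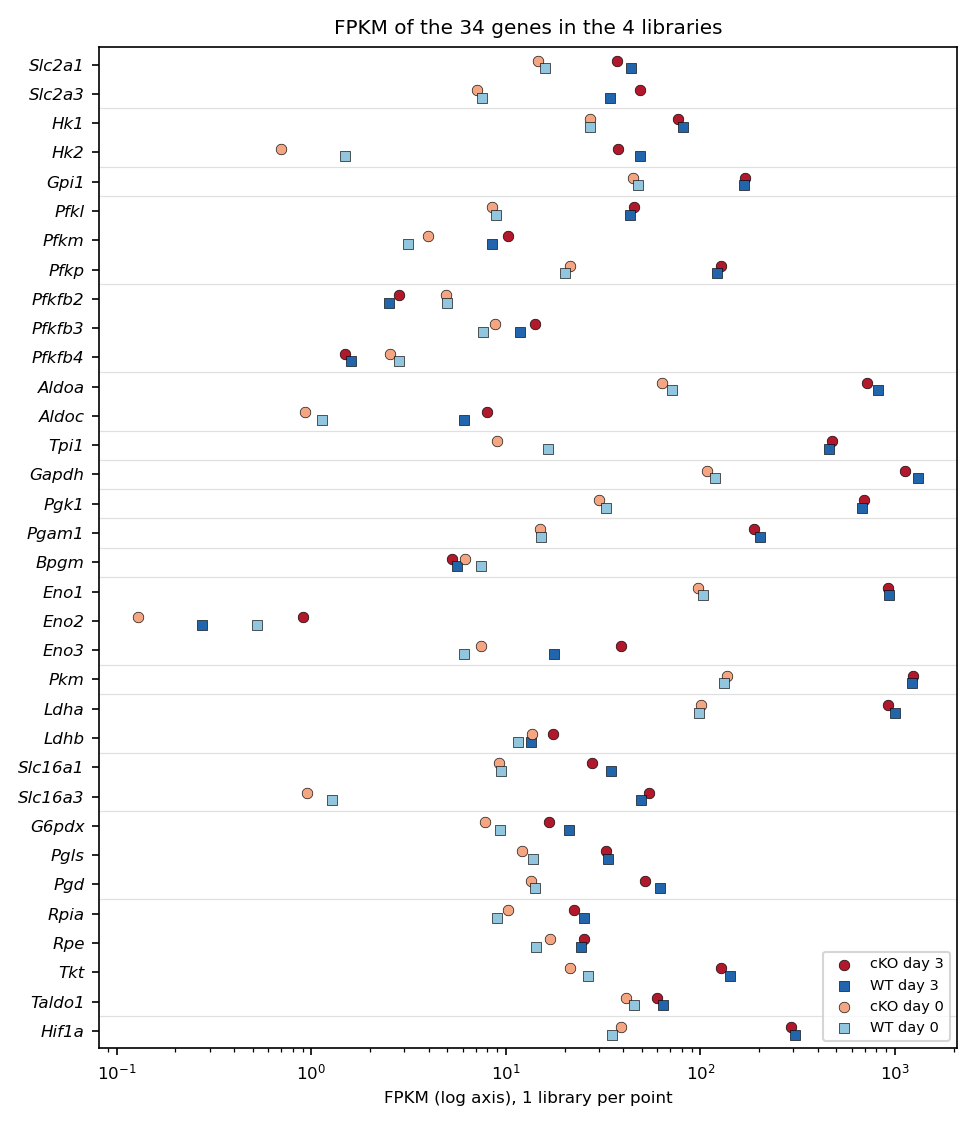
FPKM of each of the 34 genes (rows, ordered along the pathway, with lines between steps) on a log axis, with 1 point per library: cKO as circles and WT as squares, day 3 in dark and day 0 in light colours. For *Gapdh*, *Pkm*, *Eno1*, *Ldha*, *Aldoa* and *Pgk1* the day 3 points lie far to the right of the day 0 points, whereas cKO and WT points of the same day lie close together for most genes.

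The increase was uneven along the pathway. Summed FPKM of the 7 payoff genes was 10.7 times as high on day 3 as on day 0 in cKO and 10.7 times in WT. For the 9 preparatory genes the ratio of sums was 9.27 in cKO and 8.86 in WT, and for the 4 lactate genes 8.19 in cKO and 9.13 in WT. Abundant genes weigh most in such sums. In cKO and WT the ratios were 4.10 and 4.59 for hexokinase, 3.77 and 3.50 for *Gpi1*, and 5.43 and 5.39 for phosphofructokinase. They were 11.3 and 11.3 for aldolase and 52.7 and 27.7 for *Tpi1*. Median log2 ratios were 2.58 and 2.34 for the preparatory genes, and 3.32 and 3.34 for the payoff genes. Glucose uptake, with 2 genes, had ratios of 3.96 in cKO and 3.35 in WT, and the 7 pentose phosphate genes 2.73 in cKO and 2.81 in WT. The members with log2 ratios over 3 in both genotypes were *Hk2*, *Aldoa*, *Tpi1*, *Gapdh*, *Pgk1*, *Pgam1*, *Eno1*, *Pkm*, *Ldha* and *Slc16a3*. The share of all genes beyond 3 was not computed, so their number has no background to be set against. None of these members belongs to the pentose phosphate branch. Across the 33 members the ratios in cKO and WT had a Pearson correlation of 0.98, and across all 11013 genes measured in both 0.89. Genes are not replicates, and the values of each genotype share their 2 libraries.

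**Figure D2:**
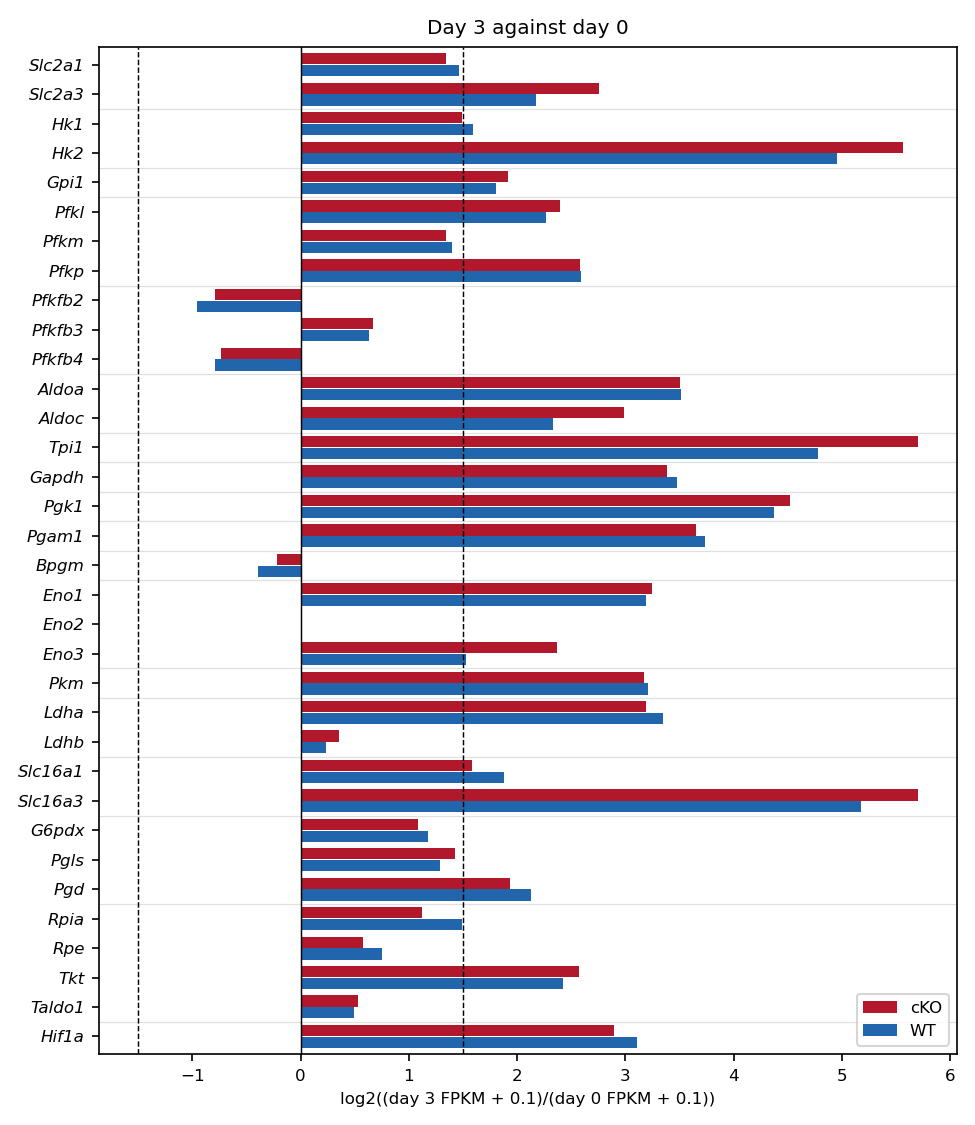
Log2 ratio of day 3 to day 0 for each gene, cKO (upper bar) and WT (lower bar), with the size rule at 1.5 in either direction as dashed lines. The longest bars are those of *Tpi1*, *Slc16a3* and *Hk2*, the bars of *Pfkfb2*, *Pfkfb4* and *Bpgm* point to lower values, and *Eno2* has no bar because it was under 1 FPKM in every library.

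Hypoxia-inducible factor 1 (HIF-1) and MYC are known activators of glycolytic genes and bind short motifs, the HIF core and the E-box, so the promoters of the members were searched. The RefSeq table (GRCm38.p6) gave windows of 250 bases before to 50 bases after the start for 33 members, 48 windows in all, with no entry for *Slc2a3*. The core ACGTG or GCGTG, on either strand, stood in 38 of the 48 windows (79.2%), against 61.7% of 11092 windows of genes measured in the WT activation comparison and 43.8% of all 32851 windows. Of the 33 members, 28 had it in at least 1 window, and *Rpe*, *Bpgm*, *Eno2*, *Tpi1* and *Gpi1* had it in none. The E-box CACGTG, which contains ACGTG, was in 6 windows (12.5%, against 10.1% and 7.15%). The CIC octamers TGAATGAA or TGAATGGA, on either strand, were in 1 window (2.08%, against 1.46% and 2.47%), that of *Gpi1*. A match is only a run of letters and does not show binding.

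The 250 bases before the start of 5 members are shown to set promoters of genes with large increases beside promoters of genes with small ones. They are *Ldha* (chr7:46845554-46845803, plus strand), *Pgk1* (chrX:106186850-106187099, plus strand) and *Hk2* (chr6:82774455-82774704, minus strand), with log2 ratios of day 3 to day 0 over 3 in both genotypes, and *Taldo1* (chr7:141391910-141392159, plus strand) and *Ldhb* (chr6:142507958-142508207, minus strand), with ratios under 0.6. Each is the stretch just upstream of the first exon in RefSeq, and capitals mark the HIF core on either strand.
Ldha: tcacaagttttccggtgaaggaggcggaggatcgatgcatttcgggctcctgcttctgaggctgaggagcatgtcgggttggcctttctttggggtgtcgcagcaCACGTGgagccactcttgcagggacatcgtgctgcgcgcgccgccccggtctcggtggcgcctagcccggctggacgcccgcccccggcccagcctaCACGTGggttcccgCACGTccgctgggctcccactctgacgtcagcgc
Pgk1: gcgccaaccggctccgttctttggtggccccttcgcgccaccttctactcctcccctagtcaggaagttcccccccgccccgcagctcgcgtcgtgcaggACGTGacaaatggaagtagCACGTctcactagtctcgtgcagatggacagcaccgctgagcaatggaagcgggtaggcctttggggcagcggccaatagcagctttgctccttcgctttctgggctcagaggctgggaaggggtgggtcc
Hk2: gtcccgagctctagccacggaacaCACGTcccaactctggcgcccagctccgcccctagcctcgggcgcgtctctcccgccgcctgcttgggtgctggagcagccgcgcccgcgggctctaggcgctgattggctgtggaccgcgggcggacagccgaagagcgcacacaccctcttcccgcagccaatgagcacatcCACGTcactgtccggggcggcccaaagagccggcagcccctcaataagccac
Taldo1: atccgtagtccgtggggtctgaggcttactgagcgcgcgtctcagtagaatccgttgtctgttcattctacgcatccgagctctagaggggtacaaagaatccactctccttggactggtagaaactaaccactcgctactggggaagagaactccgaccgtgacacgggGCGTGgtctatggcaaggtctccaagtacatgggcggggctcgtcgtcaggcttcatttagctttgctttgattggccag
Ldhb: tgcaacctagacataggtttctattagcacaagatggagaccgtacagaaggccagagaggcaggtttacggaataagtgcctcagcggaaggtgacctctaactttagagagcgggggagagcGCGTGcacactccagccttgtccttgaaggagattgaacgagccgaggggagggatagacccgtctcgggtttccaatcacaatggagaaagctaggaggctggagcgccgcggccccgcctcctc
The *Ldha* stretch holds 3 capital runs, of which 2 are complete E-boxes. *Pgk1* and *Hk2* hold 2 runs each, and *Taldo1* and *Ldhb* hold 1 run each, so the core stands in the promoters of both kinds. These 5 do not stand for all members. *Tpi1*, also with ratios over 3, had no core in its window, and 1 window of *Pfkfb2*, with ratios below 0, had 4 matches. Matches are not the runs above: they cover the whole window and are counted on each strand, so that an E-box gives 2. By that count the windows of the starts shown had 7 matches for *Ldha*, 2 each for *Pgk1*, *Hk2* and *Taldo1*, and 1 for *Ldhb*. Members beyond the size rule in both genotypes had the core in 22 of 27 windows (81.5%), and all members in 38 of 48 (79.2%).

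Glucose enters through facilitative carriers. *Slc2a1*, which encodes the broadly expressed carrier GLUT1, had 37.2 FPKM on day 3 against 14.6 on day 0 in cKO, and 43.8 on day 3 against 15.8 on day 0 in WT. *Slc2a3*, which encodes the high-affinity carrier GLUT3, had 48.8 on day 3 against 7.12 on day 0 in cKO, and 34.3 on day 3 against 7.53 on day 0 in WT. Both carriers were at their higher values on day 3, but *Slc2a3* alone met the size rule, with log2 ratios of 2.76 in cKO and 2.17 in WT, against 1.35 and 1.47 for *Slc2a1*. The share of *Slc2a3* in the summed FPKM of the pair was accordingly 56.7% on day 3 against 32.8% on day 0 in cKO, and 43.9% on day 3 against 32.3% on day 0 in WT. The order of the carriers on day 3 was therefore opposite in the cKO and the WT library.

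Hexokinases trap glucose as glucose 6-phosphate. *Hk1*, the form found in most tissues, had 76.7 FPKM on day 3 against 27.2 on day 0 in cKO, and 81.7 on day 3 against 27.0 on day 0 in WT. *Hk2*, the regulated form of muscle, fat and many tumours, had 37.6 on day 3 against 0.697 on day 0 in cKO, and 48.9 on day 3 against 1.48 on day 0 in WT. *Hk2* was low before stimulation, with an estimated 35 fragments in cKO and 61 in WT, and its log2 ratios of 5.56 in cKO and 4.95 in WT were among the 3 highest of the members. The counting intervals were 5.27 to 6.28 in cKO and 4.67 to 5.43 in WT. *Hk2* supplied 32.9% of the FPKM of the pair on day 3 against 2.50% on day 0 in cKO, and 37.4% on day 3 against 5.21% on day 0 in WT. *Hk1* stayed the more abundant form in every library. The next enzyme, glucose phosphate isomerase (*Gpi1*), had 169.6 FPKM on day 3 against 45.0 on day 0 in cKO, and 167.7 on day 3 against 47.9 on day 0 in WT, with log2 ratios of 1.91 and 1.80. The WT ratio is 1.40 relative to the median gene, under the rule.

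Phosphofructokinase commits the sugar to glycolysis and has 3 genes. The platelet form, *Pfkp*, was the most abundant in all libraries, with 128 FPKM on day 3 against 21.3 on day 0 in cKO, and 121 on day 3 against 20.0 on day 0 in WT. The liver form, *Pfkl*, had 45.3 on day 3 against 8.51 on day 0 in cKO, and 43.3 on day 3 against 8.92 on day 0 in WT. Both met the size rule, with log2 ratios of 2.58 (cKO) and 2.59 (WT) for *Pfkp* and 2.40 and 2.27 for *Pfkl*. The muscle form, *Pfkm*, stayed under it at 1.34 and 1.40, and its share of the family was 5.58% on day 3 against 11.8% on day 0 in cKO, and 4.89% on day 3 against 9.80% on day 0 in WT. *Pfkp* made up 69.8% and 70.1% of the family on day 3 and 63.0% and 62.4% on day 0 in cKO and WT.

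The bifunctional PFKFB enzymes make and break fructose 2,6-bisphosphate, an activator of phosphofructokinase, and 0 of the 3 member genes met the size rule. *Pfkfb3*, the form with the highest ratio of kinase to phosphatase activity, had 14.0 FPKM on day 3 against 8.81 on day 0 in cKO, and 11.9 on day 3 against 7.63 on day 0 in WT, with log2 ratios of 0.66 and 0.63. *Pfkfb2* had ratios of -0.79 in cKO and -0.96 in WT, and *Pfkfb4* of -0.73 and -0.79, all inside the size rule. The sum of the 3 was 18.3 FPKM on day 3 against 16.3 on day 0 in cKO, and 15.97 on day 3 against 15.4 on day 0 in WT, while its make-up differed more. *Pfkfb3* held 76.5% of that sum in cKO and 74.4% in WT on day 3, against 54.1% in cKO and 49.5% in WT on day 0. The fourth gene of the family, *Pfkfb1*, is no member and was added after its values were seen. It had 5.08 FPKM on day 3 against 1.32 on day 0 in cKO, and 4.32 on day 3 against 0.96 on day 0 in WT, with ratios of 1.87 and 2.06, beyond the size rule, and it is not in the sum or the shares.

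Aldolase cuts fructose 1,6-bisphosphate into trioses. *Aldoa*, the muscle and general form, had 717 FPKM on day 3 against 63.2 on day 0 in cKO, and 819 on day 3 against 71.8 on day 0 in WT, with log2 ratios of 3.50 in cKO and 3.51 in WT. *Aldoc*, the brain form, had 8.004 on day 3 against 0.923 on day 0 in cKO, and 6.10 on day 3 against 1.13 on day 0 in WT. *Aldoc* also met the size rule, at 2.99 in cKO and 2.34 in WT, on an estimated 23 fragments in each day 0 library, and *Aldoa* made up 98.9% and 99.3% of the pair on day 3 and 98.6% and 98.5% on day 0 in cKO and WT. Triose phosphate isomerase (*Tpi1*), which interconverts the trioses, had 473 FPKM on day 3 against 8.98 on day 0 in cKO, and 457 on day 3 against 16.5 on day 0 in WT. Its log2 ratios of 5.70 in cKO and 4.78 in WT were, with those of *Slc16a3* and *Hk2*, the 3 highest of the members in each genotype. The deposited locus of *Tpi1* also carries the row of its neighbour *Spsb2*, which had 1.43 FPKM on day 3 against 1.02 on day 0 in cKO, and 0.758 on day 3 against 1.003 on day 0 in WT.

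Of the 7 payoff genes, 4 were among the 150 most abundant named genes on day 3 in both genotypes: *Gapdh*, *Pgk1*, *Eno1* and *Pkm*. *Gapdh*, glyceraldehyde 3-phosphate dehydrogenase, had 1130 FPKM on day 3 against 108 on day 0 in cKO, and 1313 on day 3 against 118 on day 0 in WT. *Pgk1*, phosphoglycerate kinase, which makes the first ATP of the payoff, had 694 on day 3 against 30.1 on day 0 in cKO, and 674 on day 3 against 32.5 on day 0 in WT. *Pgam1*, phosphoglycerate mutase, had 189 on day 3 against 14.9 on day 0 in cKO, and 203 on day 3 against 15.2 on day 0 in WT. Of these *Pgk1* had the largest log2 ratios, 4.52 in cKO and 4.37 in WT, followed by *Pgam1* with 3.65 and 3.73 and *Gapdh* with 3.39 and 3.47. *Gapdh* is often used as a reference gene for quantitative PCR, and in these libraries it was 10.5 times as high on day 3 as on day 0 in cKO and 11.1 times in WT.

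*Eno1*, the general form of enolase, had 921 FPKM on day 3 against 96.7 on day 0 in cKO, and 937 on day 3 against 102.6 on day 0 in WT. *Pkm*, pyruvate kinase, had 1241 on day 3 against 137 on day 0 in cKO, and 1229 on day 3 against 133 on day 0 in WT, with splice forms not separated in the tables. Their log2 ratios were 3.25 in cKO and 3.19 in WT for *Eno1*, and 3.17 and 3.21 for *Pkm*. By rank among named genes, *Pkm* stood at 72 in cKO and 77 in WT on day 3, against 272 and 270 on day 0. On day 3, 6 members were among the 150 highest named genes in each genotype, and on day 0 none was. *Bpgm*, which diverts a payoff intermediate to 2,3-bisphosphoglycerate, went the other way, with 5.26 FPKM on day 3 against 6.15 on day 0 in cKO, and 5.63 on day 3 against 7.44 on day 0 in WT, for log2 ratios of -0.22 and -0.40.

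The muscle enolase gene *Eno3* gave the largest difference between genotypes among the members. It had 39.1 FPKM on day 3 against 7.47 on day 0 in cKO, and 17.7 on day 3 against 6.08 on day 0 in WT. It met the size rule on activation in both genotypes, at 2.37 in cKO and 1.53 in WT, but in WT not with a pseudocount of 1 (1.40) nor relative to the median gene (1.13). The log2 ratio of cKO to WT on day 3 was 1.14, with a counting interval of 0.91 to 1.37, and on day 0 it was 0.29 with an interval of -0.17 to 0.76. *Eno3* had an estimated 523 fragments in cKO and 224 in WT on day 3. The share of *Eno3* in enolase FPKM remained small, at 4.07% on day 3 against 7.16% on day 0 in cKO, and 1.86% on day 3 against 5.57% on day 0 in WT. The deposited locus of *Eno3* (chr11:70656054-70662567, GRCm38) overlaps the RefSeq gene of the abundant *Pfn1* (profilin 1), which has a row on a locus of its own and for which the log2 ratio of cKO to WT on day 3 was -0.18. The neuronal form *Eno2* had 0.900 FPKM on day 3 against 0.129 on day 0 in cKO, and 0.273 on day 3 against 0.524 on day 0 in WT, with an estimated 22 and 3 fragments in cKO and 6 and 11 in WT.

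**Figure D3:**
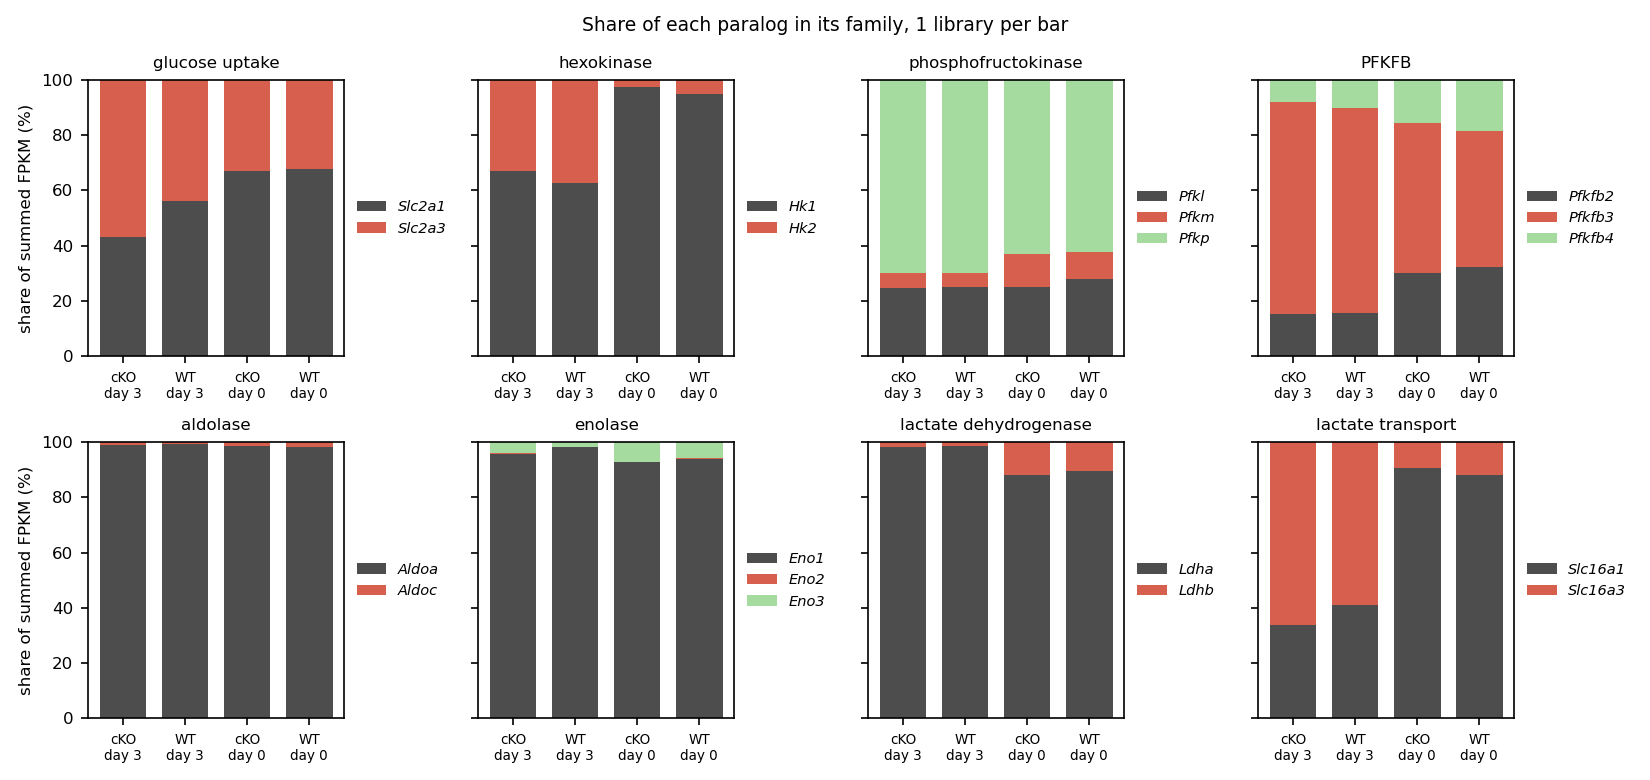
Share of each paralog in the summed FPKM of its family, in percent, for 8 families, with 1 bar per library in the order cKO day 3, WT day 3, cKO day 0 and WT day 0. The lactate transporter and hexokinase bars differ widely between days, with *Slc16a3* at 66.3% and 58.8% on day 3 against 9.39% and 11.9% on day 0, and aldolase and enolase bars are nearly filled by *Aldoa* and *Eno1* throughout.

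At the pyruvate end, *Ldha*, whose subunit favours the formation of lactate, had 915 FPKM on day 3 against 100.2 on day 0 in cKO, and 996 on day 3 against 97.7 on day 0 in WT, for log2 ratios of 3.19 in cKO and 3.35 in WT. *Ldhb*, whose subunit favours the reverse reaction, had 17.4 on day 3 against 13.6 on day 0 in cKO, and 13.5 on day 3 against 11.5 on day 0 in WT. The *Ldhb* ratios were 0.36 in cKO and 0.23 in WT, and relative to the median gene they turn to -0.01 and -0.17. *Ldha* thus held 98.1% of the pair in cKO and 98.7% in WT on day 3, against 88.1% in cKO and 89.5% in WT on day 0.

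The lactate transporters changed places. *Slc16a1*, encoding MCT1, had 27.8 FPKM on day 3 against 9.18 on day 0 in cKO, and 34.8 on day 3 against 9.42 on day 0 in WT. *Slc16a3*, encoding MCT4, the form of strongly glycolytic tissues, had 54.6 on day 3 against 0.951 on day 0 in cKO, and 49.6 on day 3 against 1.28 on day 0 in WT. The log2 ratios of *Slc16a3* were 5.70 in cKO and 5.17 in WT, on 37 estimated fragments in cKO and 41 in WT on day 0, with counting intervals of 5.39 to 6.36 and 4.83 to 5.76. *Slc16a1* met the rule too, at 1.59 and 1.88, but in neither genotype relative to the median gene (1.22 and 1.47). *Slc16a3* was the less abundant of the pair on day 0 and the more abundant on day 3 in both genotypes. The deposited locus of *Slc16a3* overlaps the RefSeq gene of *Csnk1d*, which has a row on a locus of its own. *Csnk1d* had 28.7 FPKM on day 3 against 24.1 on day 0 in cKO, and 30.1 on day 3 against 25.0 on day 0 in WT. How reads were divided between these genes was not tested.

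Of the 7 genes of the pentose phosphate branch, 2 (*Pgd* and *Tkt*) were higher on day 3 by the size rule in each genotype and 0 were lower. Of all genes, 17.3% were higher and 6.96% lower in cKO, and 19% higher and 8.84% lower in WT, so the count is not far from that share. Of the oxidative enzymes, which yield NADPH, *Pgd* (6-phosphogluconate dehydrogenase) had 51.8 FPKM on day 3 against 13.5 on day 0 in cKO, and 61.8 on day 3 against 14.1 on day 0 in WT, and met the size rule at 1.93 and 2.13. *G6pdx*, the X-linked gene of the entry enzyme glucose 6-phosphate dehydrogenase, had 16.6 on day 3 against 7.81 on day 0 in cKO, and 21.1 on day 3 against 9.28 on day 0 in WT. Its ratios of 1.08 and 1.18, and those of the lactonase gene *Pgls* at 1.43 and 1.28, stayed under the rule.

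Among the non-oxidative enzymes, which interconvert sugars and make ribose 5-phosphate, *Tkt* (transketolase) had 127 FPKM on day 3 against 21.3 on day 0 in cKO, and 142 on day 3 against 26.4 on day 0 in WT, with ratios of 2.57 and 2.42. *Taldo1* (transaldolase) had 59.6 on day 3 against 41.3 on day 0 in cKO, and 63.9 on day 3 against 45.4 on day 0 in WT, the highest day 0 values of the branch. Its ratios of 0.53 and 0.49 are only 0.16 and 0.09 relative to the median gene. *Rpia*, ribose 5-phosphate isomerase, had ratios of 1.12 in cKO and 1.49 in WT, and *Rpe*, the epimerase, of 0.58 and 0.75. Transketolase therefore took the first place in the branch on day 3 and transaldolase held it on day 0, in both genotypes.

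*Hif1a*, encoding the oxygen-regulated subunit of HIF-1, had 292 FPKM on day 3 against 39.1 on day 0 in cKO, and 305 on day 3 against 35.2 on day 0 in WT, for log2 ratios of 2.90 in cKO and 3.11 in WT. The subunit is mainly controlled at the level of protein stability, which was not measured here.

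Whether loss of CIC altered the pathway was read from cKO against WT on each day. On day 3, 0 of 33 members were higher and 0 lower by the size rule, where 0.743% of 10895 gene names were higher and 1.21% lower, so that calls would be rare in any list of this length. On day 0, likewise, 0 of 33 were higher and 0 lower, against 0.486% higher and 1.81% lower of 10910. The median log2 ratio of the members was -0.03 on day 3, with a range of -0.38 to 1.14, and -0.08 on day 0, with a range of -0.99 to 0.33. Ratios lay within 0.5 of 0 for 31 members on day 3 and 31 on day 0. The WT and cKO tables had been normalized separately, and the median of all genes was -0.05 on day 3 and 0.00 on day 0.

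**Figure D4:**
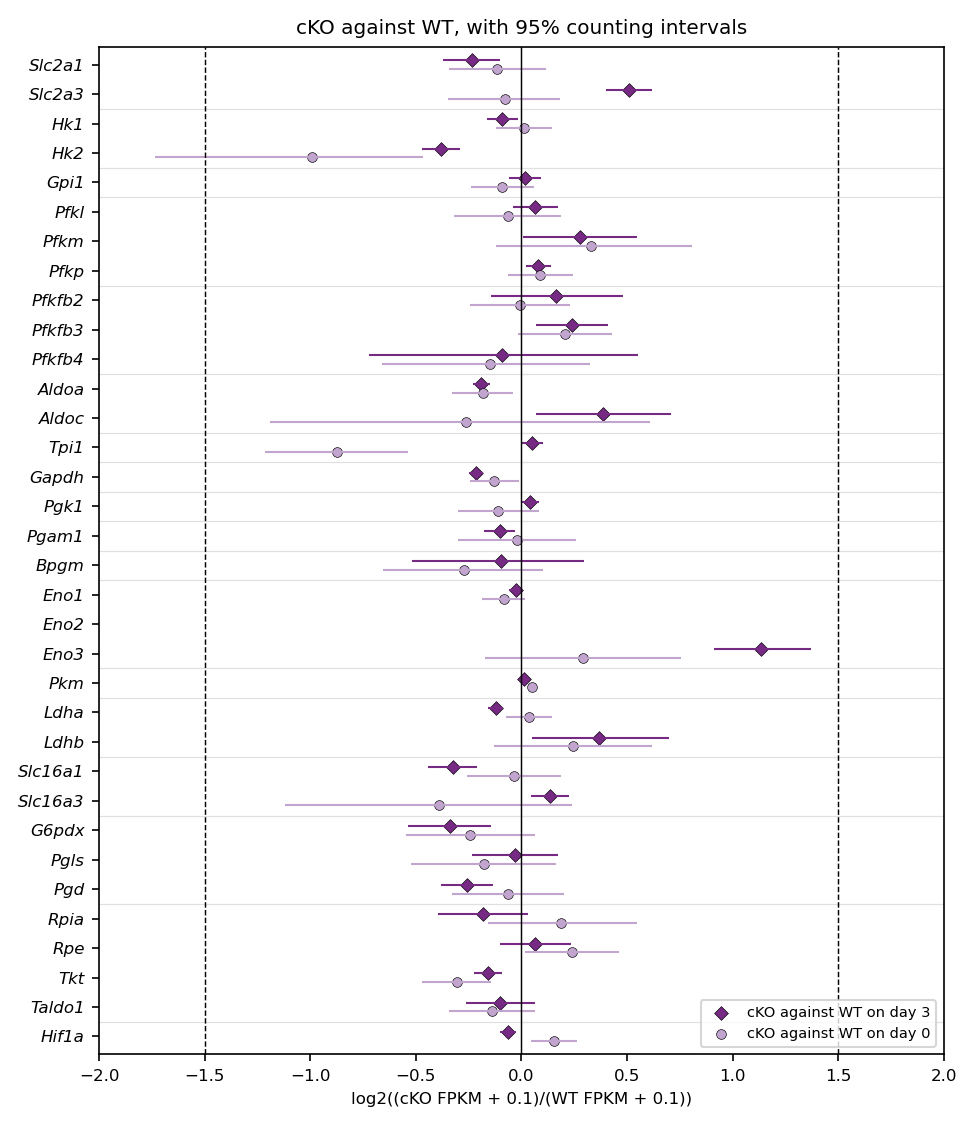
Log2 ratio of cKO to WT for each gene on day 3 (dark diamonds) and day 0 (light circles), with 95% counting intervals as horizontal lines and the size rule at 1.5 in either direction as dashed lines. No point passes the dashed lines, the *Eno3* diamond stands furthest to the right at 1.14, the *Hk2* and *Tpi1* circles stand furthest to the left at -0.99 and -0.87, *Eno2* is not drawn because it was under 1 FPKM in every library, and *Pkm* has no interval because it had no transcript length.

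The exceptions in size were few. On day 3, apart from *Eno3*, *Slc2a3* lay beyond 0.5, at 0.51 with a counting interval of 0.40 to 0.62. *Hk2* had a log2 ratio of cKO to WT of -0.38 on day 3 and of -0.99 on day 0, where the interval was -1.73 to -0.47. *Tpi1* had a ratio of 0.05 on day 3 and of -0.87 on day 0, with an interval of -1.21 to -0.54 on day 0, so cKO and WT lay close on day 3 and cKO lower on day 0. On day 0 the cKO library also held fewer transcripts of macrophages, erythroid cells and neutrophils, by the sums given above, and *Mki67*, a marker of dividing cells, had 9.90 FPKM in cKO and 15.1 in WT. *Mki67* is 1 of 6 listed genes of activated and dividing T cells, of which 4 were lower and 2 higher in cKO on day 0. Their median log2 ratio was -0.28, and 0 met the size rule. The part of these cells and genes in the day 0 values of *Hk2* and *Tpi1* was not tested. On day 3, the macrophage and neutrophil sums were under 4 FPKM in both genotypes. The erythroid sum was 14.5 FPKM in cKO and 30.2 in WT, where 4 of 5 measured genes met the size rule as lower in cKO. The B-cell sum was 60.2 FPKM in cKO and 48.2 in WT, and *Mki67* had 234 in cKO and 238 in WT.

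For the members with an interval, counting error left limited room for large differences. On day 3 the interval lay wholly within 1.5 of 0 for 32 of 32 members and within 1 for 31, the exception being *Eno3*. On day 0 it lay within 1.5 for 31 of 32, the exception being *Hk2*, and within 1 for 28. Intervals without 0 were found for 21 of 32 members on day 3 and for 7 of 32 on day 0, and the spread between mice, which was not measured, adds to them. The response to stimulation differed between genotypes by less than 0.5 in log2 ratio for 27 of 33 members. For *Tpi1* (0.92), *Eno3* (0.84), *Aldoc* (0.65), *Hk2* (0.61), *Slc2a3* (0.59) and *Slc16a3* (0.53) the cKO ratio was larger than the WT ratio by at least 0.5. Of these 6, *Hk2*, *Slc16a3* and *Aldoc* had fewer than 70 estimated fragments in each day 0 library.

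Other genes of the pathway, from lists of 44 enzymes and transporters and 27 HIF pathway genes and regulators, were set beside the members. Of the other enzymes and transporters, 8 of 25 measured were higher and 3 lower on day 3 in cKO (17.3% and 6.96% of all genes), and 7 of 27 were higher and 4 lower in WT (19% and 8.84% of all genes), with median log2 ratios of 0.54 in cKO and -0.29 in WT. The gene of the carrier GLUT6, *Slc2a6*, had 13.4 FPKM on day 3 against 1.12 on day 0 in cKO, and 15.3 on day 3 against 0.78 on day 0 in WT, with ratios of 3.47 and 4.13. *Bsg*, encoding basigin, the chaperone that brings MCT1 and MCT4 to the cell surface, had 109 on day 3 against 21.1 on day 0 in cKO, and 123 on day 3 against 21.6 on day 0 in WT. It was higher on day 3 as its partners were, with ratios of 2.37 in cKO and 2.50 in WT. The deposited locus of *Bsg* also carries the row of the neutrophil gene *Elane*. How reads were divided between the genes of that locus was not tested. *Emb*, encoding the related chaperone embigin and chosen after its values were seen, had 51.7 on day 3 against 190 on day 0 in cKO, and 36.6 on day 3 against 153 on day 0 in WT, for ratios of -1.88 and -2.07. *Galk1*, encoding galactokinase, was higher as well, with ratios of 3.72 in cKO and 3.64 in WT.

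Of the HIF pathway genes and regulators, 9 of 23 measured were higher and 1 lower on day 3 in cKO (17.3% and 6.96% of all genes), and 10 were higher and 1 lower in WT (19% and 8.84% of all genes), with medians of 1.31 in cKO and 0.80 in WT. Relative to the median gene, 8 were higher and 1 lower in cKO (12% and 10.3% of all genes), and 7 were higher and 2 lower in WT (12.5% and 12.6% of all genes). *Egln3*, an oxygen sensor that marks HIF for destruction and is itself a HIF target, had 23.5 FPKM on day 3 against 0.80 on day 0 in cKO, and 28.3 on day 3 against 0.82 on day 0 in WT. *Bnip3*, a mitophagy receptor, had 57.4 on day 3 against 1.58 on day 0 in cKO, and 52.9 on day 3 against 2.25 on day 0 in WT. The log2 ratios of *Egln3* were 4.71 in cKO and 4.94 in WT, and those of *Bnip3* 5.09 and 4.49. *Bhlhe40*, a repressor of the basic helix-loop-helix class, had ratios of 3.62 in cKO and 3.77 in WT, and *Epas1*, encoding HIF-2α, of 2.95 and 3.87. *Txnip*, an inhibitor of glucose uptake and the 1 gene of the list that was lower by the size rule (named after its values were seen), had 35.0 on day 3 against 139 on day 0 in cKO, and 25.8 on day 3 against 126 on day 0 in WT. Ratios of the list were above 0 for 14 and below 0 for 9 genes in cKO, and above 0 for 15 and below 0 for 8 in WT. Among those below 0 was *Pdk1*, also named after its values were seen, at -0.72 in cKO and -1.22 in WT.

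Outside the members, 1 gene of these lists differed between genotypes by the size rule, on day 3. It was 1 of 23 measured enzymes and transporters, with 0 of 23 HIF pathway genes and regulators, where 0.743% of all gene names were higher and 1.21% lower. On day 0 it was 0 of 28 and 0 of 22, against 0.486% higher and 1.81% lower. A single call is thus no trait of the lists, and no fragment estimate was made for it. *Rbks*, encoding ribokinase, which feeds free ribose into the pentose phosphate branch, had 36.8 FPKM on day 3 against 6.19 on day 0 in cKO, and 7.57 on day 3 against 14.7 on day 0 in WT. The log2 ratio of cKO to WT was 2.27 on day 3 and -1.23 on day 0, and that of day 3 to day 0 was 2.55 in cKO and -0.95 in WT. Its neighbour *Bre*, on a deposited locus of its own, had 58.2 on day 3 against 37.9 on day 0 in cKO, and 68.2 on day 3 against 40.3 on day 0 in WT. The *Bre* values do not show how reads at the *Rbks* locus were assigned, which was not tested.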

How the data were processed

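The deposited FPKM values came from Cufflinks 2.1.1 after the authors had aligned the reads with TopHat 2.0.10, to mm9 per the methods (the submitters' notes also name CASAVA). All 34 members overlap their GRCm38.p6 gene and 3 their mm9 gene, so the deposited coordinates were read as GRCm38. Division of reads between genes, pseudogenes (known for several members, such as *Gapdh*) and strands is not given in the sources used here. Day 0 and day 3 columns of the 2 tables of day 3 against day 0 were used, and 4 other FPKM columns (2 tables), the authors' fold changes and p-values, and 16 annotation tables were not. Where a name had several loci (411 names), the locus of highest mean FPKM was taken, and 25 names turned to dates were restored from the other table. Fragments were estimated from the step of low FPKM values (72.0% to 75.3% of them within 0.05 of a whole number), with the length of the longest coding transcript less 130 bases. If a shorter transcript was in use, the fragment numbers are too high and the intervals too narrow. Intervals are exact Clopper-Pearson ones of the share of fragments. The members, the lists and the size rule (absolute log2 ratio over 1.5, after the methods) were chosen with earlier results of these data known. Text names every member, with values per library for those beyond the rule and the most abundant of each step, and up to 4 genes of each other list beyond it in both genotypes on activation, or in cKO against WT, of which 1 is not reported here. The log2 ratios and the size rule were tested on simulated data with planted changes well beyond the rule. Fragment estimates, intervals, shares and promoter searches were not tested in this way. The software was Python 3.11.15, numpy 2.4.6, pandas 2.3.3, scipy 1.17.1 and matplotlib 3.10.9.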

Additional observations from a re-analysis of the deposited data

Results flagged for a closer look

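For 12 members the ratio of cKO to WT lay on opposite sides of 0 on day 3 and on day 0. With 1 library per group the difference between the days was not tested. The log2 ratio of cKO to WT on day 3 less that on day 0 was 0.92 for *Tpi1*, 0.65 for *Aldoc*, 0.59 for *Slc2a3* and 0.53 for *Slc16a3*. It was 0.17 for *Pfkfb2*, 0.15 for *Pgk1*, 0.13 for *Pfkl* and 0.11 for *Gpi1*, which are small. For 4 members it was below 0, at -0.37 for *Rpia*, -0.22 for *Hif1a*, -0.16 for *Ldha* and -0.10 for *Hk1*. No member had opposite signs of its day 3 to day 0 ratio in cKO and WT.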

How the results depend on the processing

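With ratios taken relative to the median gene, a pseudocount of 1 or of 0.01, a minimum of 5 FPKM or no minimum, a threshold of 1 in place of 1.5, sums over the loci of a name and loci of comma-joined names left out, every count of members stayed within 1.5 times and every median within 1.5-fold of its value, with 1 exception: at a threshold of 1, 1 member (*Eno3*) was higher in cKO than in WT on day 3. Leaving out the 7 members whose locus carries another gene name, added after seeing the data, also changed no count or median by that much. No member beyond the rule changed sign, but small ratios did after centring, such as those of *Ldhb* on activation (-0.01 in cKO and -0.17 in WT). *Eno3* in WT and *Slc16a1* in cKO fell under the rule with a pseudocount of 1, and *Hk1*, *Gpi1*, *Eno3* and *Slc16a1* in WT and *Slc16a1* in cKO after centring. At a threshold of 1, 12 further single values passed. *Eno2* entered the comparisons only with no minimum. No paired analysis was possible because each group has 1 library. The lack of replicates limits every comparison, and depth limits *Eno2*, and *Hk2*, *Aldoc* and *Slc16a3* on day 0.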
